A study of Mus musculus with 24 samples.

Results

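The nuclear-encoded genes of the mitochondrial respiratory chain were followed by symbol through the allelic count tables of mouse kidney and of a pair of lymphoid clones. Members were the autosomal genes whose symbols start with Nduf, Uqcr, Cox4 to Cox8 or Atp5, together with Sdha, Sdhb, Sdhc, Sdhd, Cyc1 and Cycs, with names of pseudogenes left out. Of 106 matching symbols 3 were X-linked and 7 were pseudogenes, which left 96 of the 37315 genes listed. By complex they were 45 genes of complex I, 4 of complex II, 9 of complex III, 20 of complex IV, 17 of complex V and the gene of cytochrome c.

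RNA of 1 kidney from an adult female F1 mouse of the 129S1/SvImJ x CAST/EiJ cross, untreated, was split into 18 aliquots. They made 6 NEBNext libraries from 100 ng, 6 SMARTseq libraries from 10 ng and 6 SMARTseq libraries from 100 pg, so all kidney libraries were technical replicates of a single RNA. Abl.1 and Abl.2 are Abelson-transformed B-lineage lines, also female, untreated and of the same F1 background, each grown from a single cell and each sequenced as 2 SMARTseq libraries from 10 ng, and the Abl.2 libraries were run again. All p-values below therefore measure the spread between technical libraries of 1 animal and of 2 clones. The kidney and clone libraries also differed in RNA extraction, sequencer and read layout, which cannot be told apart from tissue.

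Oxidative phosphorylation is carried out by complexes I to V of the inner mitochondrial membrane. Complexes I (NADH dehydrogenase) and II (succinate dehydrogenase) pass electrons to ubiquinone, complex III to cytochrome c, and complex IV (cytochrome c oxidase) to oxygen, while complex V (ATP synthase) uses the resulting proton gradient to make ATP. Most subunits are encoded in the nucleus, and the kidney's proximal tubule, which reabsorbs most of the filtered salt and solutes, is rich in mitochondria. Several complex IV subunits exist as isoforms with separate genes, among them pairs known as the ubiquitous and the heart and muscle forms.

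Promoter sequences of 74 of the 96 members were given in the RefSeq set used (mouse GRCm38.p6, from 250 bases before to 50 bases after the start). They were searched on both strands for letters of binding sites of factors known to act on respiratory genes. The NRF1 core letters GCGCATGC, whose matches on both strands overlap in its palindrome, were in 13 of the 74 (17.6%) and in 2.80% of all 27025 promoters. The ETS letters CCGGAAG were in 17 (23.0%, all promoters 9.14%), the YY1 letters AAGATGGC in 10 (13.5%, all 2.87%) and the ERR letters CAAGGTCA in 4 (5.41%, all 1.52%). A match describes letters and not binding. The promoters of 3 genes on which the results below turn are given 5′ to 3′ on the minus strand, with the matched letters, on either strand, in capitals. Cox6a1 (chr5:115348909-115349208) encodes the ubiquitous form of a complex IV subunit and was the member that moved most with the library kit. Atp5g2 (chr15:102670998-102671297) encodes the membrane c-subunit of complex V and had the allelic imbalance farthest from even among members tested in all 3 kidney sets. Sdhd (chr9:50603800-50604099) encodes a membrane anchor of complex II, the complex with the narrowest range of allelic imbalance in the kidney sets.
Cox6a1: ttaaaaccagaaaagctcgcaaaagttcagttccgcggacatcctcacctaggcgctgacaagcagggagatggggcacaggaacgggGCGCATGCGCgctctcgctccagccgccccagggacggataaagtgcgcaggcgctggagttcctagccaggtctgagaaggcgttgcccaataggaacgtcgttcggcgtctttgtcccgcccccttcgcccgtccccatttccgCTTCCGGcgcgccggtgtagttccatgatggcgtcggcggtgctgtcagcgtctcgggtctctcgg
Atp5g2: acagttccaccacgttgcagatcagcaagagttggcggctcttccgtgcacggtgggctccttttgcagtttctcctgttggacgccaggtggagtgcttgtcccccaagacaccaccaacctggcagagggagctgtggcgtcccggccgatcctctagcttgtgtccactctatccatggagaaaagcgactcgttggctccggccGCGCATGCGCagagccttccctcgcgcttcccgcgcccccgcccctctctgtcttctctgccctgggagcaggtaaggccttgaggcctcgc
Sdhd: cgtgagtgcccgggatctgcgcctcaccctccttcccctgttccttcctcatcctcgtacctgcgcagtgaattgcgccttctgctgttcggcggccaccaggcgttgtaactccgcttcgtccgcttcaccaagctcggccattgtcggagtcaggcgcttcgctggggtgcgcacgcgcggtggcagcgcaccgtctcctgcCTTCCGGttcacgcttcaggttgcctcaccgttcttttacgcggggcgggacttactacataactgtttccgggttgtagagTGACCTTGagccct
The Cox6a1 window held the NRF1 and the ETS letters, the Atp5g2 window the NRF1 letters, and the Sdhd window the ETS and the ERR letters.

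Counts were deposited per gene and parental allele, summed over positions that differ between the strains. A gene with more such positions collects more counts, so levels of single genes were compared within a gene and not between genes. Shares summed over genes, given below, weigh genes with more positions more heavily. Totals were 6138693 to 6702351 allelic counts for a kidney library and 19213150 to 22410835 for a clone library. Of the 96 members 12 were at 0 in every library, namely Ndufa2, Ndufa9, Ndufaf1, Ndufb4, Ndufb4c, Ndufb9, Ndufs7, Cyc1, Cox4i1, Cox6b1, Cox7a1 and Cox8c. They include genes that all respiring cells use, such as Cyc1 and Cox4i1, so a 0 here says only that no allelic count was made. The summed CPM (allelic counts scaled to effective library sizes) of 6 proximal tubule markers were 15672 to 23983 in kidney and at most 7.43 in the clones. Those of 8 B lineage markers were 9.87 to 22.9 in kidney and 6495 to 8493 in the clones.

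Respiratory chain genes took 2.39 to 2.64% of the autosomal counts in the 100 ng libraries and more in the SMARTseq kidney libraries, where the share was 5.94 to 6.00% at 10 ng and 5.76 to 5.95% at 100 pg. The Abl.1 libraries stood at 3.01 and 3.85%, and the Abl.2 libraries at 1.90 and 2.04%. The kidney sets of the SMARTseq kit thus lay above every clone library, while the 100 ng set, from the same RNA, lay between the clones. Complex II was the exception in size, with 0.373 to 0.405% at 100 ng, 0.477 to 0.487% at 10 ng, 0.228 to 0.254% in Abl.1 and 0.185 to 0.187% in Abl.2, so that each kidney set was above both clones. At 100 ng this share rested mostly on Sdha, with mean counts of 15443, against 2755 for Sdhb, 4918.5 for Sdhc and 1297 for Sdhd. Complex IV ran from 0.296 to 0.322% at 100 ng and from 0.818 to 0.834% at 10 ng, against 0.284 to 0.367% in Abl.1 and 0.189 to 0.214% in Abl.2.

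**Figure D1:**
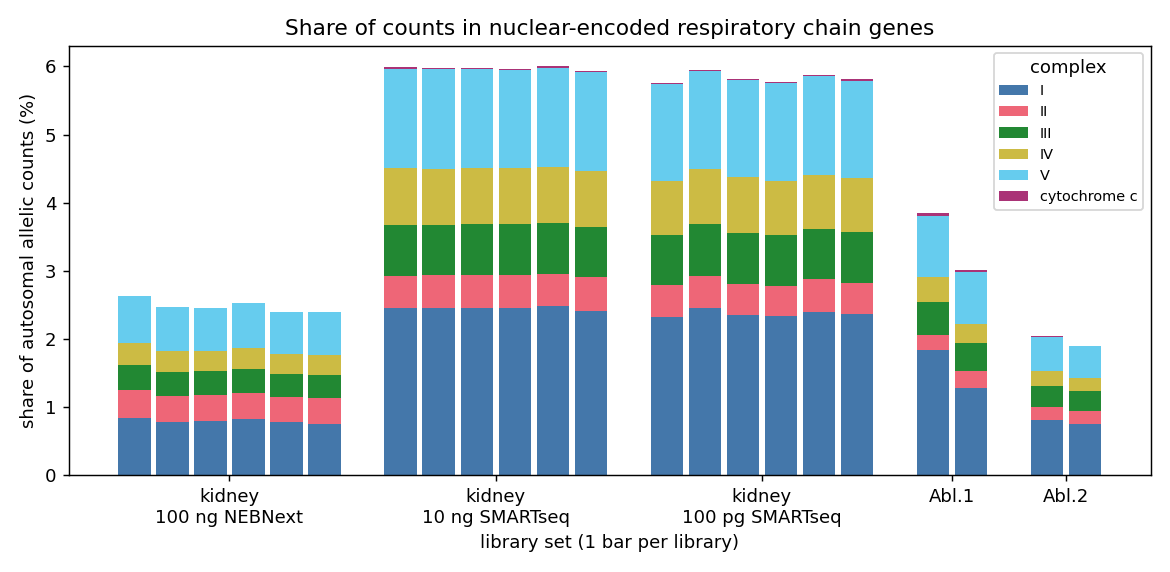
Share of autosomal allelic counts taken by respiratory chain genes in each library, in percent. Each bar is 1 library, with the complexes stacked. The 10 ng and 100 pg kidney libraries reach 5.76 to 6.00% over all complexes, and the 100 ng kidney libraries 2.39 to 2.64%, between Abl.2 (1.90 and 2.04%) and Abl.1 (3.01 and 3.85%).

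The abundance of the respiratory chain in kidney and in lymphoid cells was compared first with the kidney set of the same kit and input as the clones. In the 10 ng libraries 64 of the 81 members tested were higher in kidney than in the mean of the clones and 0 were lower (edgeR quasi-likelihood test, adjusted p under 0.05 and a log2 change of at least 1). Of the 13030 genes tested 41.8% were called higher and 27.2% lower. The member median was 1.92 on the log2 scale and that of all genes 0.38. In 58 members every kidney library lay above every clone library and in 1 member below, against 40.3% and 29.4% of all genes. The 15 members that were not tested were the 12 at 0 and Cox6a2, Cox7b2 and Uqcrh, which had at least 10 counts in too few libraries. Cox6a2 and Uqcrh had mean counts of 351.5 and 30.5 in Abl.2, against 4.67 and 3.67 in the 10 ng set. The filter thus kept these 2 from being called lower in kidney. In bulk RNA a higher share of respiring cells and more RNA per cell cannot be told apart.

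All complexes had most or all of their tested members called higher, and cytochrome c was not called. In complex I it was 30 of 38, with a median log2 change of 1.79. In complex II it was 4 of 4 (median 1.86), in complex III 4 of 7 (1.64), in complex IV 11 of 14 (2.87) and in complex V 15 of 17 (2.07). The complex IV median is 2.67 when Cox4i2 and Cox8b, which were at 0 in a clone, are set at their bounds. Cox8b (0 counts in the clones) and Cox6b2 (mean counts of 8.5 in Abl.1 and 4 in Abl.2) passed the count filter through the kidney libraries. Ndufa4l2 (mean counts of 1.5 in Abl.1 and 21.5 in Abl.2), Cox4i2 (54.5 and 0) and Cox6c2 (17.5 and 7.5) also needed kidney libraries to pass. The filter thus favoured a higher call for each of these genes. All are among the 11, so the count and median of complex IV carry this limit. By role, all 16 core subunits tested were called (median 1.83), as were 40 of 52 accessory subunits (2.04), 5 of 8 assembly factors (1.09) and 3 of 3 retrocopies (2.75). The retrocopies Ndufa11b (mean counts of 17.5 in Abl.1 and 10.5 in Abl.2), Ndufs6b (14 and 5) and Cox6c2 needed kidney libraries to pass the filter. So did the core subunit Ndufs3 (10 and 6) and the accessory subunit Atp5l (21 and 14). A higher call was thus favoured for these too, and for every retrocopy counted. Cox7a2l, which helps join complexes III and IV, was the only member of its role and had a log2 change of -0.14.

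The result depended on the kidney set. With the 100 ng libraries in place of the 10 ng set, against the same clone libraries, 15 members of 77 were called higher and 15 lower (all genes 41.5% and 30%), with a median of 0.02 (all genes 0.35). With the 100 pg libraries 61 of 79 were higher and 1 lower (all genes 40.2% and 26.4%), with a median of 1.82. In the 100 ng set complex I had 4 of 36 members called higher and 10 lower (median -0.25), complex V 2 and 2 (0.16), complex IV 6 and 1 (0.92) and complex II 2 and 0 (0.88). Scaling moved the 10 ng result less, since 64 members were called with size factors of DESeq2 and 50 with library totals (46 higher and 4 lower). The median of all genes was then 0.49 and -0.32, and that of the members 2.03 and 1.23. Of all genes called, 60.5% were higher and, with library totals, 47.2%.

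**Figure D2:**
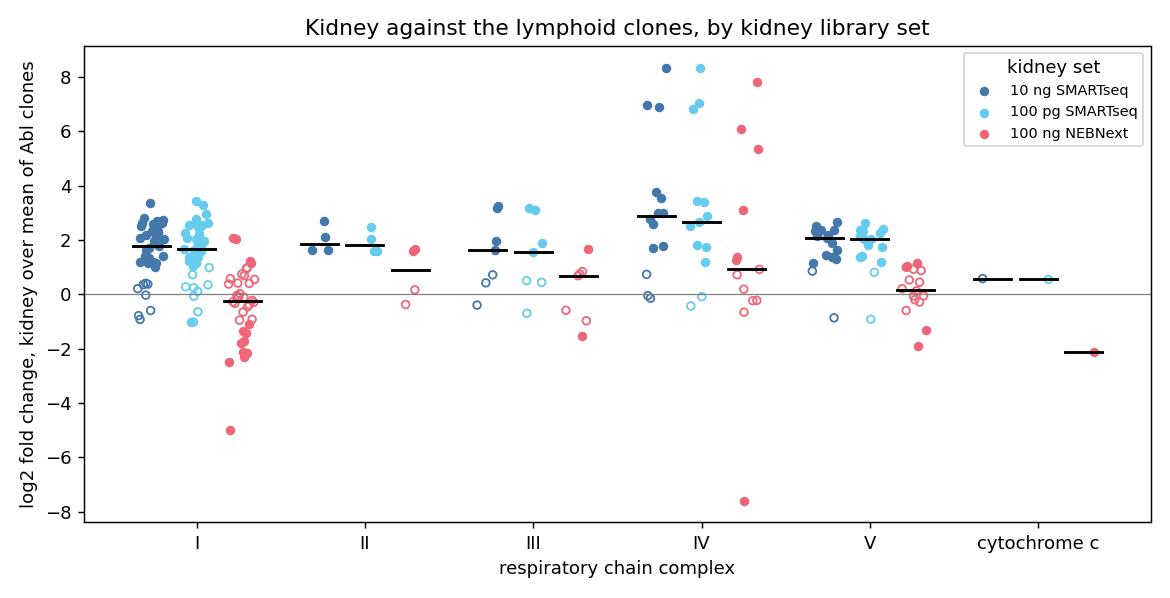
Log2 fold change of each tested member, kidney over the mean of the Abl clones, by complex and for each of the 3 kidney sets; points are genes, and the horizontal line marks no change. Most points of the 10 ng and 100 pg sets lie above 1, with medians of 1.92 and 1.82, while the 100 ng points lie on both sides of 0, with a median of 0.02.

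In complex II, which oxidises succinate and is also an enzyme of the citric acid cycle, all 4 subunits were higher in the 10 ng kidney set than in the clones. The flavoprotein subunit Sdha stood at 2139 to 2338 CPM (median 2196) in the 100 ng libraries and at 2088 to 2187 (2143) in the 10 ng libraries. It was at 816 and 936 CPM in Abl.1 and at 556 and 584 in Abl.2, so that both kidney sets were above every clone library. Its log2 change was 1.62 ± 0.0508 (SE) with the 10 ng set and 1.66 ± 0.0626 with the 100 ng set (edgeR adjusted p = 2.57e-12 and 4.52e-12). The iron-sulfur subunit Sdhb stood at 355 to 441 CPM (median 389) at 100 ng and 1515 to 1612 (1572) at 10 ng. In Abl.1 Sdhb was at 749 and 586 CPM and in Abl.2 at 404 and 401. Its 10 ng libraries were above all clone libraries, and its 100 ng libraries were below Abl.1 and overlapped Abl.2. The change of Sdhb was 1.62 ± 0.0667 with the 10 ng set and turned to -0.38 ± 0.0872 with the 100 ng set. The membrane anchor Sdhc was at 1493 to 1529 CPM at 10 ng and 637 to 782 at 100 ng, above its 289 and 328 in Abl.1 and 198 and 158 in Abl.2. Its log2 change was 2.71 ± 0.0693, and 1.6 ± 0.0871 with the 100 ng set. Sdhd, the other anchor, was at 692 to 737 CPM at 10 ng, 180 to 193 at 100 ng, 239 and 234 in Abl.1 and 112 and 127 in Abl.2. Its change of 2.10 ± 0.0586 became 0.16 ± 0.0713 with the 100 ng set, which was not called.

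The members with the largest change in complex I were the accessory subunits Ndufc1 and Ndufb2. Ndufc1 stood at 3172 to 3266 CPM in the 10 ng libraries and at 379 to 437 in the 100 ng libraries, against 958 and 436 in Abl.1 and 158 and 137 in Abl.2. Its log2 change was 3.35 ± 0.177 (adjusted p = 6.40e-10), and 0.37 ± 0.160 with the 100 ng set. The change of Ndufb2 was 2.82 ± 0.148 and 0.69 ± 0.153 with these sets. At the low end stood Ndufa11 at -0.93 ± 0.162 and Ndufb10 at -0.79 ± 0.405, both accessory subunits and neither called. Both were called lower with the 100 ng set (-4.99 and -1.10, adjusted p = 7.76e-11 and 0.0292, edgeR) and with library totals (-1.62 and -1.47). Ndufb10 rests on few counts, with a mean of 5.17 a library at 10 ng, 5.67 at 100 ng, 44.5 in Abl.1 and 49 in Abl.2. Ndufa11 was also called with the 100 pg set (-1.0), without Abl.1 replicate 2 (-1.26) and without Abl.2 replicate 2 (-1.08), and Ndufb10 without 10 ng replicate 1 (-1.01). In complex III the Rieske iron-sulfur protein Uqcrfs1 changed by 3.26 ± 0.0690, from 93.5 and 78.2 CPM in Abl.1 and 37.9 and 38.8 in Abl.2 to 519 to 554 in the 10 ng libraries. It kept 1.66 ± 0.0856 with the 100 ng set, whose libraries were at 167 to 191 CPM and above all clone libraries. Uqcr10, a small subunit of complex III, changed by 3.18 ± 0.185 (100 ng set 0.84 ± 0.172). The complex III subunit Uqcrc1 had 0.42 ± 0.0530, which turned to -0.59 ± 0.0639 with the 100 ng set and to -0.28 with library totals. Uqcrq, with at most 43 counts in any clone library or 12 in any 10 ng library, had -0.40 ± 0.542.

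Complex V had its largest changes in the small subunits Atp5mpl (2.66 ± 0.0813) and Atp5k (2.51 ± 0.184), and its smallest in Atp5g2 (-0.87 ± 0.132) and Atp5h (0.85 ± 0.0675). With the 100 ng set Atp5mpl had 0.20 and Atp5k 0.12, while Atp5h was called lower at -1.31. Cycs, which encodes the somatic cytochrome c, was at 215 to 228 CPM (median 219) at 10 ng and 26.3 to 37.8 (36.5) at 100 ng. It was at 346 and 223 CPM in Abl.1 and 79.4 and 78.2 in Abl.2, so the 10 ng libraries lay above Abl.2 and overlapped Abl.1, while the 100 ng libraries lay below both clones. Its log2 change was 0.58 ± 0.10 with the 10 ng set, -2.12 ± 0.135 with the 100 ng set and -0.12 with library totals.

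The c-subunit of complex V forms the rotor ring, and its same mature protein is encoded by Atp5g1, Atp5g2 and Atp5g3. Atp5g1 was at 3674 to 3763 CPM at 10 ng, 575 to 688 at 100 ng, 1161 and 896 in Abl.1 and 560 and 448 in Abl.2. Its change was 2.39 ± 0.0799 (adjusted p = 5.18e-12), and -0.20 ± 0.0901 with the 100 ng set. Atp5g3 was at 1214 to 1261 CPM at 10 ng, 429 to 520 at 100 ng, 291 and 262 in Abl.1 and 217 and 244 in Abl.2. It was called higher with the 10 ng set at 2.33 ± 0.0578 and had 0.87 ± 0.0791 with the 100 ng set, whose libraries were still above all clone libraries. Atp5g2 was at 44.4 to 56.2 CPM at 10 ng, 17.2 to 31.5 at 100 ng, 177 and 103 in Abl.1 and 66.5 and 57.1 in Abl.2. Every kidney library was below every clone library for this gene. Its change was called lower with the 100 ng set (-1.92 ± 0.170), with library totals (-1.56), without Abl.1 replicate 2 (-1.15) and without Abl.2 replicate 2 (-1.03).

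The isoform genes of complex IV were described in pairs. Cox6a1, the ubiquitous form, was at 180 to 207 CPM (median 192) at 10 ng, with 381 and 282 in Abl.1 and 127 and 121 in Abl.2, and had a change of -0.05 ± 0.0840, which was 0.05 with DESeq2 size factors and 0.05 in the DESeq2 Wald test. In the 100 ng libraries it was at 0.580 to 1.80 CPM (median 0.869), which made the change -7.60 ± 0.183. Cox6a2, the heart and muscle form, had 344 and 359 counts in the Abl.2 libraries (10.7 and 11.7 CPM), 2 and 4 counts in the Abl.1 libraries and at most 7 counts in a 10 ng kidney library. Cox6b2, known as a testis form, was at 23.5 to 32.7 CPM at 10 ng and 10.7 to 20.6 at 100 ng, with 12 and 5 counts in Abl.1 and 0 and 8 in Abl.2. The fitted change of Cox6b2 was 6.97 ± 0.356 with the 10 ng set and 6.07 ± 0.458 with the 100 ng set. The partner gene Cox6b1 was at 0 throughout.

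Cox8b, another heart and muscle form, had 9 to 19 counts in each 10 ng library (1.74 to 3.71 CPM) and 0 in all clone libraries. Its level at 10 ng was at least 23.8-fold higher than the mean of the clones at a floor of 3 counts per library. Cox8a, the ubiquitous form, was at 1535 to 1563 CPM at 10 ng, 574 to 741 at 100 ng, 379 and 283 in Abl.1 and 217 and 194 in Abl.2. Its change was 2.59 ± 0.0790, and 1.35 ± 0.102 with the 100 ng set. Cox4i2, the form known for lung and low oxygen, was at 0.576 to 3.09 CPM at 10 ng, 3.25 and 1.57 in Abl.1 and 0 in Abl.2. The kidney range of Cox4i2 thus overlapped that of Abl.1. Cox7a2 changed by 2.99 ± 0.10 (100 ng set 0.72 ± 0.105), and Cox7a2l was at 178 to 207 CPM at 10 ng, 272 and 178 in Abl.1 and 204 and 218 in Abl.2. Ndufa4, now known as a complex IV subunit, changed by 2.75 ± 0.159 (100 ng set 0.92 ± 0.150). Its paralogue Ndufa4l2, known to be induced by low oxygen, was at 21.8 to 34.4 CPM at 10 ng and 6.46 to 13.4 at 100 ng, with 3 and 0 counts in Abl.1 and 22 and 21 in Abl.2. The fitted change of Ndufa4l2 was 6.89 ± 0.290 with the 10 ng set and 5.36 ± 0.416 with the 100 ng set.

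Gene lists outside the members were counted in the same fits, beside a median of all genes of 0.38 that library totals shifted by -0.70. Of all genes tested, 41.8% were called higher and 27.2% lower with the 10 ng set. With the 100 ng set these shares were 41.5% and 30%, and the median of all genes was 0.35. Of 15 citric acid cycle genes tested 12 were higher with the 10 ng set and 0 lower (median 1.63), and with the 100 ng set 6 were higher and 0 lower (0.85). Of 27 assembly factors that the symbol rule does not hold, 10 were higher and 2 lower (0.54), and with the 100 ng set 5 and 5 (-0.50). Of 14 glycolytic genes 5 were higher and 4 lower (0.25), and with the 100 ng set 4 and 6 (-0.42). Of 12 regulators of mitochondrial genes, 2 were higher, namely the coactivator Ppargc1a and the nuclear receptor Esrra (2.75), and 3 were lower, namely Pprc1 (-2.83), Nrf1 (-2.65) and Polrmt (-1.94). With the 100 ng set 2 regulators were higher and 3 lower. The 13 subunit genes of the mitochondrial genome were not analysed here.

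The kit and input were compared on the same RNA. At 10 ng with SMARTseq 62 of the 76 members tested were higher than at 100 ng with NEBNext and 0 were lower, where 20.2% of the 11914 genes tested were higher and 17.4% lower. The member median was 1.77 and that of all genes -0.03. With library totals the median of all genes shifted by -0.36 and 50 members were called, all higher. In 70 members every 10 ng library lay above every 100 ng library and in 0 below (all genes 32.8% and 26.4%). The calls were 32 of 36 in complex I (median 1.92), 3 of 4 in complex II (1.43), 4 of 6 in complex III (1.35), 9 of 13 in complex IV (1.5) and 13 of 16 in complex V (1.73), and Cycs was called at 2.60 ± 0.0694. Cox6a1 was first with 7.44 ± 0.117 (adjusted p = 1.21e-27), from 4 to 13 counts a library at 100 ng to 929 to 1076 at 10 ng. Cox6c2, a retrocopy whose counts may belong to its parent gene, was next with 4.54 ± 0.517 (adjusted p = 8.53e-09), which rests on 0 to 2 counts a library at 100 ng and 12 to 22 at 10 ng. Ndufa11 followed with 3.96 ± 0.158, from 1.11 to 3.19 CPM to 32.0 to 37.6. The large subunits Ndufs1 (-0.16 ± 0.0454) and Sdha (-0.13 ± 0.0229) and also Cox7a2l (-0.01 ± 0.0450) were not called.

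Transcript length moved with the kit difference. The median merged exonic length was 1772.5 bases for the members tested and 4408 for all genes tested. Among all genes under 1 kb the median log2 change was 1.64, between 1 and 2 kb 1.17, between 2 and 3 kb 0.45, between 3 and 5 kb -0.09 and over 5 kb -0.42. The members' medians in the same bins were 2.11 (18 members), 1.95 (27), 1.29 (11), 1.29 (17) and 1.67 (3), each above that of all genes of the bin. Summed CPM of 2 erythroid markers with counts also differed between the kits, with 26.9 to 39.2 at 100 ng and 310 to 356 in the SMARTseq libraries. Their part in the member difference was not tested, and in the clones both markers were at 0.

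**Figure D3:**
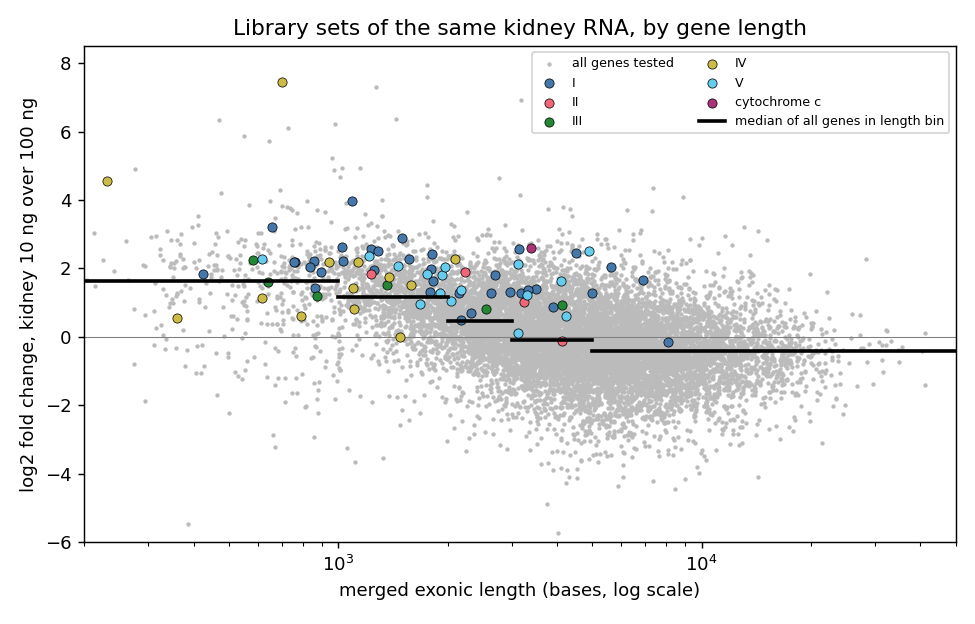
Log2 fold change, 10 ng SMARTseq over 100 ng NEBNext, against merged exonic length in bases on a log axis; members are drawn over all genes tested. Members under 1 kb have a median of 2.11 and all genes of that length 1.64, and over 5 kb the medians are 1.67 for 3 members and -0.42 for all genes.

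Input alone was compared within the SMARTseq kit. Between 100 pg and 10 ng 0 of 77 members were called with edgeR and 0 with DESeq2, where 1% of 11674 genes were called, and the member median was -0.03. At an unadjusted p under 0.05 there were 28 members. With no minimum fold 23 members passed adjusted p under 0.05, of which 3 were higher at 100 pg and 20 lower (all genes 8.81% and 6.88%). Among them were Atp5g3 at -0.28 ± 0.0298, Cox7a2l at -0.26 ± 0.0545, Sdhc at -0.20 ± 0.0329 and Uqcrc1 at 0.11 ± 0.0183. In 2 members the 100 pg libraries were all above the 10 ng libraries and in 18 all below, against 4.13% and 5.65% of all genes.

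The clones also differed from each other. In Abl.2 42 of 81 members tested were lower than in Abl.1 and 2 were higher, where 19.8% of the 11992 genes tested were lower and 16.5% higher. The member median was -1.11 and that of all genes 0.01. With library totals the median of all genes shifted by 0.34, and 33 members were lower and 3 higher. In complex I 23 of 38 were lower (median -1.48) and in complex V 11 of 17 (-1.18), while complex II had 0 of 4 called (-0.76). The 4 complex II genes ran from Sdha at -0.62 ± 0.183 to Sdhd at -0.98 ± 0.175 (adjusted p from 0.0372 to 0.00694), short of the minimum log2 change of 1. The genes with the largest changes were Cox4i2, Cox6a2 and Atp5k. Cox4i2 was at 0 in Abl.2, at least 24.6-fold lower than in Abl.1 at a floor of 3 counts per library. Cox6a2, the heart and muscle isoform, was higher in Abl.2 by 6.40 ± 0.488 (adjusted p = 0.000426). The other member called higher was Uqcrh, a hinge subunit of complex III with 33 and 28 counts in Abl.2 and 5 and 7 in Abl.1 (1.93 ± 0.627, adjusted p = 0.0490). Atp5k was lower by -2.54 ± 0.410 and Cycs by -1.85 ± 0.255.

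The Abl.1 libraries differed between themselves for these genes. Replicate 1 exceeded replicate 2 in 63 of 69 members, with a median log2 ratio of 0.55, where all genes had -0.01, all genes under 1 kb 0.89 and all genes over 5 kb -0.07. In Abl.2 the median ratio of the first over the second replicate was 0.12, and the repeat runs differed from the first by -0.10 and -0.0025. Without Abl.1 replicate 1 the clones differed in 34 members with a median of -0.92, and without Abl.1 replicate 2 in 55 with -1.44. Among all genes the Abl.2 to Abl.1 change also ran with length, from -0.70 under 1 kb to 0.30 over 5 kb. The part of length in the member difference was not tested. In Abl.2 against Abl.1, 5 of 15 citric acid cycle genes (median -0.55) and 7 of 12 glycolytic genes (-1.59) were lower and 0 of either list were higher. Of all genes tested, 19.8% were lower and 16.5% higher.

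Strain bias was measured as allelic imbalance (AI), the maternal column's share of a gene's allelic counts, where 0.5 means equal alleles. The columns are named maternal and paternal in the files, and no strain is assigned to either here. A gene was called biased when its pooled AI differed from 0.5 in a 2-sided proportional test with Bonferroni correction over all genes tested. Counts were first divided by the square of the quality correction coefficient (QCC), the excess spread between replicate libraries over binomial sampling. The QCC was 1.87 ± 0.195 (SD over pairs) at 100 ng, 1.47 ± 0.0133 at 10 ng, 2.59 ± 0.0532 at 100 pg, 2.65 in Abl.1 and 2.18 in Abl.2.

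Biased members were common in kidney and lay in both directions. At 100 ng 18 of 68 members tested were biased to the maternal and 10 to the paternal column (9.43% and 8.63% of all genes tested, 18.1% either way). At 10 ng it was 24 and 24 of 73 (all genes 12.9% and 11.4%, 24.3% either way) and at 100 pg 16 and 17 of 73 (7.37% and 6.84%, 14.2% either way). The members had more counts than other genes, with a median of 1783 counts a library against 207.5 at 100 ng and 4634 against 161 at 10 ng, over the genes tested in all 3 sets. The part of depth in the higher share of calls was not tested. AI lay between 0.4 and 0.6 in 57 of 68 members at 100 ng, 54 of 73 at 10 ng and 56 of 73 at 100 pg. That was 83.8%, 74.0% and 76.7% of the members, and 77.4%, 74.4% and 71.0% of all genes tested. The median distance of AI from 0.5 was 0.039, 0.038 and 0.037 in the members. In all genes it was larger, at 0.047, 0.051 and 0.056, and the part of depth in this was not tested either. The same direction was called in all 3 sets for 20 of 68 members (12 maternal and 8 paternal, 29.4%), against 10.9% of 9575 genes.

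By complex at 10 ng, 13 members of complex I were biased to the maternal and 10 to the paternal column of 35 tested, with AI from 0.211 to 0.681. Complex V had 4 and 7 of 16 with AI from 0.001 to 0.743, complex IV 5 and 3 of 11, and complex III 2 and 2 of 6. Complex II had the narrowest range, with 1 of 4 called at 10 ng, 2 of 4 at 100 ng and 0 of 4 at 100 pg, and AI between 0.434 and 0.505 in all kidney sets, though in Abl.2 Sdhb reached 0.999. Sdha had a mean AI of 0.461 at 100 ng, 0.483 at 10 ng and 0.505 at 100 pg, Sdhb 0.497, 0.491 and 0.490, Sdhc 0.434, 0.490 and 0.475, and Sdhd 0.496, 0.490 and 0.489. In the clones 13 members were called maternal and 5 paternal of 74 in Abl.1 (all genes 10.6% and 9.75%, 20.4% either way), and 10 and 11 of 76 in Abl.2 (15.5% and 12.9%, 28.4% either way).

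Atp5g2 was counted almost wholly in the paternal column in kidney. Its AI was 0.003 ± 0.0042 (SD, n = 6 libraries) at 100 ng, 0.001 ± 0.0033 at 10 ng and 0 in all 6 libraries at 100 pg, on 120 to 303 counts a library. In the clones it was 0.408 and 0.410 in Abl.1 and 0.376 and 0.444 in Abl.2, on 1831 to 3637 counts, so both alleles were counted there. The median AI of the genes tested within 10 Mb of Atp5g2 was 0.495 to 0.503 in the kidney sets, 0.461 in Abl.1 and 0.508 in Abl.2. Cox7a2l was the opposite case, with a mean AI of 0.991, 0.987 and 0.985 in the kidney sets, 0.934 in Abl.1 and 0.939 in Abl.2, and was called maternal in all 5 groups. Its 18 kidney libraries ranged from 0.98 to 0.997. Cox6b2 had 0.854 ± 0.061, 0.906 ± 0.022 and 0.909 ± 0.017 in the kidney sets and too few counts in the clones.

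The electron carrier Cycs was biased to the paternal column in kidney. Its AI was 0.077 to 0.198 (median 0.126) at 100 ng, 0.194 to 0.230 (0.224) at 10 ng and 0.189 to 0.217 (0.214) at 100 pg. In Abl.1 it was 0.461 and 0.482, which was not called, and in Abl.2 0.393 and 0.395, which was called. Uqcrb, a ubiquinone-binding subunit of complex III, had a mean AI of 0.794 at 100 ng, 0.933 at 10 ng and 0.934 at 100 pg, with 0.624 in Abl.1 and 0.583 in Abl.2. Atp5h, of the stalk of complex V, had 0.802, 0.743 and 0.741 in kidney, 0.688 in Abl.1 and 0.524 in Abl.2. The complex I accessory subunit Ndufa12 had 0.780, 0.680 and 0.670, with 0.599 in Abl.1 and 0.399 in Abl.2. Ndufs5, another of complex I, had 0.575, 0.632 and 0.640 in kidney. Ndufc1 was to the paternal column at 0.388, 0.390 and 0.390, and Atp5f1, a stalk subunit of complex V, to the maternal column at 0.581, 0.579 and 0.593. The other 10 members called the same way in all 3 sets were Ndufb3, Ndufb2, Uqcrc1, Ndufv2, Atp5g1, Ndufv1, Ndufa10, Atp5a1, Ndufc2 and Ndufa4, at 0.071 to 0.028 from 0.5 in the mean of the sets. Of these, Ndufb3, Ndufa4, Atp5a1 and Ndufc2 lost their call at 100 ng, and Ndufa4 and Ndufv1 at 100 pg, when single libraries were left out.

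**Figure D4:**
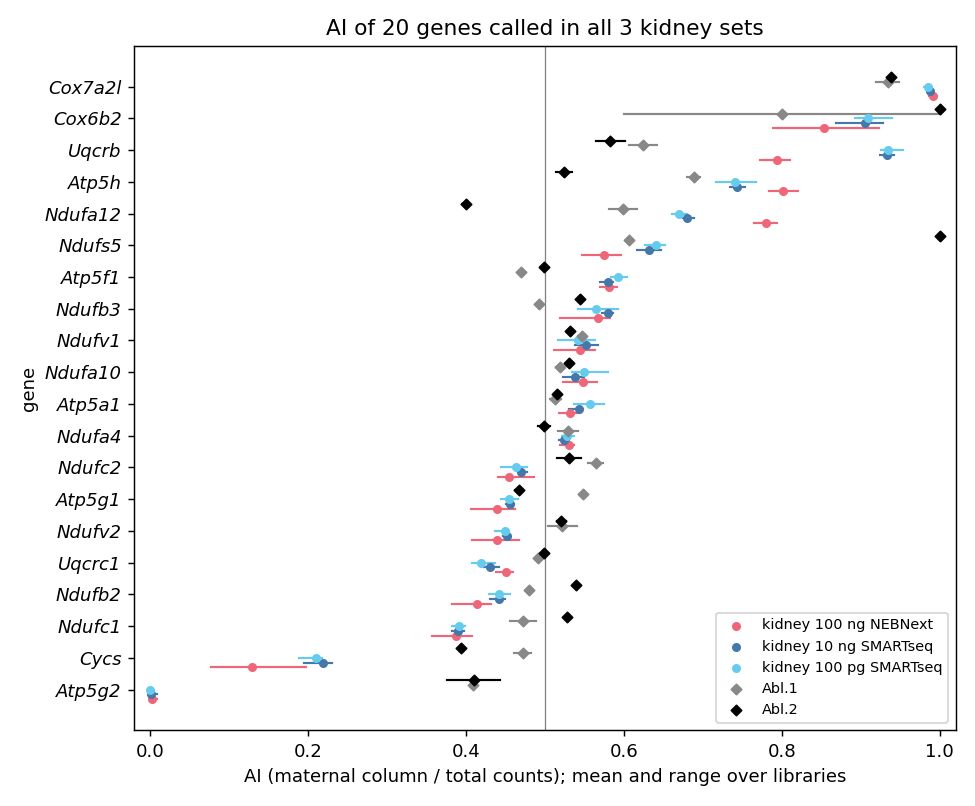
AI of the 20 members called biased the same way in all 3 kidney sets, by set and clone. Points are means over libraries, horizontal lines run from the lowest to the highest library, and the vertical line marks an AI of 0.5. Atp5g2 lies at 0 to 0.009 in all kidney libraries and at 0.376 to 0.444 in the clones, and Cox7a2l above 0.9 in all libraries.

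The agreement of AI between kidney sets was then compared gene by gene. Between the 10 ng and 100 pg sets 0 of 73 members differed (QCC-corrected 2-sample proportional test with Bonferroni correction, all genes 0.442%), 7 had an unadjusted p under 0.05, and the edgeR allelic test called 0. The median absolute difference was 0.00716 (all genes 0.0289), and 71 of 73 members were within 0.05. Across the 73 members Pearson's r was 0.994 (all genes 0.895) and Spearman's rank correlation 0.970. Both are a description over genes of 1 RNA that share their polymorphic positions.

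Between the 100 ng and 10 ng sets 12 of 68 members differed in AI (all genes 4.21%), 4 of them with the higher AI at 10 ng and 8 with the lower (all genes 2.26% and 1.95%). The libraries did not overlap in 17 members (all genes 6.34%). The median absolute difference was 0.0193 (all genes 0.0343), 51 of 68 members were within 0.05, and r was 0.915 (all genes 0.848). Spearman's rank correlation of the members was lower, at 0.832. The part of the members' higher counts in the share of calls, the size of the differences and r was not tested. Against 100 pg, in a comparison that shares the 100 ng libraries, 11 of 68 differed (all genes 2.94%). Libraries did not overlap in 16 (all genes 4.91%), and r was 0.905 (all genes 0.801), with a rank correlation of the members of 0.783.

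The largest difference was in Ndufab1, the mitochondrial acyl carrier protein of complex I. Its AI ran from 0.503 to 0.589 (median 0.532) at 100 ng, from 0.220 to 0.260 (0.242) at 10 ng and from 0.182 to 0.266 (0.225) at 100 pg. The SMARTseq libraries thus did not overlap the 100 ng libraries, and the gene was called biased in the SMARTseq sets and not at 100 ng. In the clones, made with SMARTseq too, the mean AI of Ndufab1 was 0.491 and 0.525. Uqcrb went from 0.794 at 100 ng to 0.933 at 10 ng, and its 100 ng libraries (0.772 to 0.810) lay below all 10 ng libraries (0.925 to 0.942). Atp5j, a stalk subunit of complex V, went from 0.489 to 0.365 and 0.366 at 10 ng and 100 pg. Ndufa12 went from 0.780 to 0.680 and 0.670.

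Smaller differences between 100 ng and 10 ng were called, among others, in Atp5g3 (0.557 and 0.496), Cox5b (0.608 and 0.548), Uqcrfs1 (0.555 and 0.495), Sdhc (0.434 and 0.490), Ndufa6 (0.487 and 0.539), Ndufv3 (0.513 and 0.468) and Sdha (0.461 and 0.483). At 100 pg these genes had 0.492 (Atp5g3), 0.534 (Cox5b), 0.475 (Sdhc), 0.542 (Ndufa6) and 0.505 (Sdha), and all 5 were called against 100 ng. Uqcrfs1 and Ndufv3 were not called there, while Uqcrc1, with 0.451 at 100 ng and 0.419 at 100 pg, was. The calls of Uqcrfs1 between 100 ng and 10 ng, and of Ndufa6 and Sdhc between 100 ng and 100 pg, were lost when single libraries were left out. Cox6a1 could not be compared, having 4 to 13 counts at 100 ng, and had a mean AI of 0.514 at 10 ng and 0.506 at 100 pg.

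The AI of Abl.1 and Abl.2 differed in 16 of 72 members (all genes 18.9%), and the libraries did not overlap in 49 (all genes 60%, with 2 libraries a clone). On chromosome 4 the Abl.2 counts of 5 members fell almost wholly in the maternal column. Sdhb went from 0.513 in Abl.1 to 0.999 in Abl.2, Ndufaf4 from 0.508 to 0.999, Ndufs5 from 0.606 to 1.000, Ndufaf6 from 0.492 to 0.999 and Ndufb6 from 0.563 to 0.992. The median AI of the genes within 10 Mb of each of these 5 was 0.999 in Abl.2 and 0.50 to 0.516 in Abl.1. The deviation was thus shared with the neighbouring genes.

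The same held for Uqcr10 on chromosome 11, with an AI of 0.999 in Abl.1 and 0.541 in Abl.2, beside neighbours at 0.998 and 0.486. Farther along chromosome 11, Atp5h (0.688 and 0.525), Ndufaf8 (0.659 and 0.456) and Atp5g1 (0.549 and 0.466) had Abl.1 neighbours at 0.661 to 0.671. On chromosome 10 Atp5d (0.519 and 0.35), Atp5b (0.502 and 0.348) and Ndufa12 (0.598 and 0.399) had Abl.2 neighbours at 0.334 to 0.342. Atp5j2 on chromosome 5 (0.497 and 0.438) had Abl.2 neighbours at 0.455. The differences in Cox7c (0.556 and 0.483) and Ndufb8 (0.373 and 0.413) lay beside neighbours at 0.447 to 0.517. The calls of Atp5j2, Cox7c and Ndufb8 were lost when single libraries were left out.

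**Figure D5:**
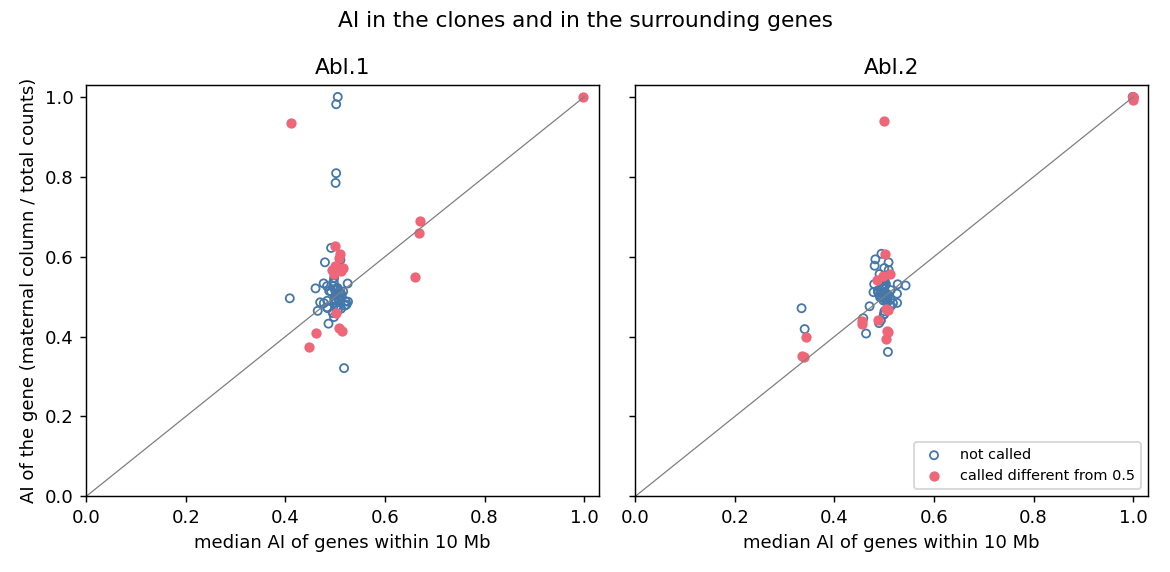
AI of each member tested in a clone against the median AI of the genes tested within 10 Mb, in Abl.1 and Abl.2; points are genes. The 5 chromosome 4 genes of Abl.2 and Uqcr10 in Abl.1 lie at 0.992 to 1.000 beside neighbours at 0.998 or 0.999, while Cox7a2l lies at 0.935 and 0.939 beside neighbours at 0.411 and 0.50.

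Against the 10 ng kidney set, the AI of 26 of 70 members differed in Abl.1 (all genes 16.8%) and of 32 of 70 in Abl.2 (all genes 23.9%), in comparisons that share the kidney libraries. Beside the genes in the chromosome blocks above stood Atp5g2, with 0.001 in kidney and 0.409 and 0.412 in the clones, and Cycs, with 0.219 in kidney and 0.473 and 0.394. Uqcrb had 0.933 in kidney and 0.626 and 0.586 in the clones, beside neighbours at 0.495 to 0.510 in the 10 ng and 100 pg sets and at 0.499 and 0.509 in the clones.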

How the data were processed

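Poly(A) RNA-seq was analysed from 18 kidney libraries and 4 clone libraries, the Abl.2 libraries with a repeat run each. The deposited values were counts per gene and parental allele. Per the labels and the study's methods, the authors aligned reads with STAR 2.5.4a to a pair of parental pseudogenomes built on GRCm38, kept unique reads, subsampled them to equal numbers, counted alleles at polymorphic sites with SAMtools, and summed sites over merged exons without regions shared by genes. A read over several sites was counted at each. Deposited tables of allelic imbalance with its limits, which the authors pooled over libraries, were not used. All per-sample count columns were used.

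From these counts, genes of the X and Y chromosomes and genes without a position (1884) were left out of library sizes and tests. Abundance was tested on maternal plus paternal counts with edgeR 4.0.16 (R 4.3.3; TMM, quasi-likelihood, Benjamini-Hochberg), for genes with at least 10 counts in as many libraries as the smaller side of the comparison held. Calls needed an adjusted p under 0.05 and a log2 change of at least 1. AI was tested by proportional tests on counts pooled over a group and divided by the square of the QCC, with Bonferroni correction at 0.05, over genes with at least 10 counts in every library. QCC was refitted from pairs of libraries. Only the first Abl.2 run was used, and the runs were summed in an alternative. Medians of neighbouring genes were taken within 10 Mb. Python 3.11.15, scipy 1.17.1 and DESeq2 1.42.0 were also used. Scripts were tested on simulated data. The number of counts limits each AI, and it covers counting error only.

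The members and lists were chosen with earlier results of these data known. The genes named were the 2 highest and 2 lowest changes in each complex for kidney against the clones, the isoform sets, complex II, members biased in all 3 kidney sets (the 10 farthest from 0.5 in full), members whose AI differed between kidney sets or between the clones, and the 3 largest changes called in other comparisons. Uqcrh, Cycs, Ndufs1, Uqcrc1 and other genes given elsewhere were chosen after their values were seen. The values of 1 member are not reported here, though the counts include it. Alternatives changed the scaling, test, filter, call rule, kidney set, null value, depth, correction and libraries. Exonic lengths came from a GENCODE mouse annotation, and promoters from RefSeq on GRCm38.p6.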

Additional observations from a re-analysis of the deposited data

Results flagged for a closer look

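In groups of 6 libraries, 6 of 112 had a library far from the others, where chance gives about 1 in 20. The complex IV share of 10 ng replicate 1 was 0.834% (the others 0.818 to 0.822%). The AI of Ndufb3 in 100 ng replicate 1 was 0.519 (the others 0.563 to 0.583). The AI of Atp5g2 in 10 ng replicate 4 was 0.008 where the others were at 0. With the others tied, any value above 0 is flagged by the rule, so this one of the 6 does not show a library far from the others. The AI of Cycs in 100 pg replicate 3 was 0.189 (the others 0.212 to 0.217). The normalised count of Atp5g3 in 10 ng replicate 4 was 1214 CPM (the others 1251 to 1261). The mean QCC of pairs with 100 ng replicate 1 was 2.13 (the others 1.78 to 1.85). Without that library 12 AI differences were called against 10 ng and 12 against 100 pg.

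The AI of 16 members differed between the clones by the QCC-corrected proportional test. As Abl.2 minus Abl.1 the difference was 0.486 in Sdhb, 0.491 in Ndufaf4, 0.393 in Ndufs5, 0.507 in Ndufaf6 and 0.429 in Ndufb6, all on chromosome 4. On chromosome 11 it was -0.458 in Uqcr10, -0.164 in Atp5h, -0.203 in Ndufaf8 and -0.0823 in Atp5g1. On chromosome 10 it was -0.169 in Atp5d, -0.155 in Atp5b and -0.198 in Ndufa12. Elsewhere it was, among others, -0.0731 in Cox7c, 0.0406 in Ndufb8 and -0.0586 in Atp5j2. The part of the chromosome blocks in these differences was not tested beyond the medians of neighbouring genes given above.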

How the results depend on the processing

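The count of members called in kidney against the clones was 64 and stayed within 1.5 times of that in all alternatives but 1, the 100 ng kidney set, which gave 30. With that set 30 of the 69 members that were positive at 10 ng and tested in both turned negative, among them the named genes Atp5g1 (-0.20), Atp5h (-1.31), Cycs (-2.12), Sdhb (-0.38) and Uqcrc1 (-0.59). With library totals 6 of 73 turned negative, Cycs (-0.12) and Uqcrc1 (-0.28) among them, and Cox6a1 turned to 0.05 with DESeq2 size factors (0.050706) and with the DESeq2 Wald test (0.050752). Between 100 pg and 10 ng, 23 members passed with no minimum fold. Without the QCC correction, biased members numbered 54 at 100 pg, 43 in Abl.1 and 39 in Abl.2, and with Benjamini-Hochberg adjustment 51, 32 and 38. AI differences between 100 ng and 10 ng numbered 23 with the edgeR test, 23 with its replicate block, 26 without QCC and 25 with Benjamini-Hochberg adjustment, and those between 100 ng and 100 pg 19, 19, 28 and 21. Between 10 ng and 100 pg they numbered 5 without QCC and 1 with Benjamini-Hochberg adjustment. Between the clones they numbered 31 and 27. Between 10 ng and Abl.1 they numbered 40 with edgeR and 42 without QCC. The QCC divides the counts, and Bonferroni correction is the stricter adjustment, so dropping either raises these counts by construction. The cause of the other changes was not tested.

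With single libraries left out, calls ranged from 61 to 64 (kidney against the clones), 33 to 55 (between the clones), 60 to 62 (10 ng against 100 ng) and 0 to 0 (100 pg against 10 ng). Biased members ranged from 23 to 27 at 100 ng, 45 to 48 at 10 ng, 29 to 32 at 100 pg, 13 to 16 in Abl.1 and 14 to 14 in Abl.2. AI differences ranged from 11 to 13 (100 ng and 10 ng), 9 to 12 (100 ng and 100 pg), 0 to 0 (10 ng and 100 pg), 13 to 15 (between the clones), 19 to 26 (10 ng and Abl.1) and 23 to 32 (10 ng and Abl.2). Where 1 clone library remained, abundance fits took its spread from the other groups. The AI tests then kept the QCC of that clone's pair, which includes the library left out.

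The replicate number as a block gave 60, 43, 62 and 0 abundance calls in the same order, and 23, 19, 0, 20, 28 and 35 AI differences with edgeR, against 23, 19, 0, 21, 40 and 46 without the block. Same-numbered kidney libraries did not deviate together (correlations from -0.020 to 0.034 over 6508 genes), and the pair of clones gave 0.173 for abundance and -0.024 for AI, so the numbers were taken as names only. Allelic depth limits the low members. Cox8b, Uqcrq, Uqcrh and Ndufb10 rest on few counts, as does Cox6a2 outside Abl.2. The 12 members at 0 could not be measured.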
